A study of Mus musculus with 13 samples.

Results

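The 81 genes described here code for the subunits of oxidative phosphorylation that are made from nuclear DNA. They were chosen by name, as every symbol in the deposited gene list that starts with Ndufa, Ndufb, Ndufc, Ndufs, Ndufv, Uqcr, Cox4i, Cox5, Cox6, Cox7, Cox8 or Atp5, leaving out assembly factors and pseudogenes. The 81 are taken from 32285 genes and hold 7 core and 29 accessory subunits of complex I, 8 of complex III, 20 of complex IV and 17 of complex V. Ndufa4, Ndufa4l2 and Cox7a2l were counted with complex IV. Atp5if1, the inhibitor of the ATP synthase, is not among the symbols of the files and was not analysed here.

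Oxidative phosphorylation takes place in the inner mitochondrial membrane. Complexes I, III and IV pass electrons from NADH to oxygen and pump protons, and complex V, the ATP synthase, lets the protons flow back and makes ATP. The core of several complexes is encoded in mitochondrial DNA, but most subunits are nuclear genes whose proteins are imported, and neurons depend heavily on this route for ATP. Several complex IV subunits exist in a common form and a form restricted to few tissues, such as muscle, lung or testis.

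Nuclei were isolated from whole frozen hippocampus of female mice of the C3B6F1 hybrid strain, which the labels of the single samples spell C3HB6F1, and their RNA was counted with 10x Genomics droplets. The young group, fed ad libitum, was 5 months old (n = 3 samples). The other 3 groups were 24 months old: one was fed ad libitum (n = 3), one was put on dietary restriction at 20 months (acute restriction, n = 3), and one at 5 months (long-term restriction, n = 4). No genotype or drug distinguishes the groups, there is no young restricted group, and the amount of food given is not in the labels used here. The labels do not say that samples were pooled, so each sample is treated as 1 mouse, and p-values measure the spread between these 13 samples. The libraries hold 38546292 to 80538090 unique molecular identifiers (UMIs, 1 for each captured RNA molecule) and 3417 to 11119 nuclei each after doublet removal.

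Nuclei were clustered without the 81 genes and without the mitochondrially encoded genes, and 82482 of 98041 nuclei fell into 14 classes named from marker genes. The hippocampal classes carried their defining markers, and each name ends in "-like" because it was rebuilt here. Median depth per nucleus was 6952.5, 3688 and 5292.5 UMIs in the young and 11200, 6620.5 and 7534.5 in the old ad libitum mice, and 5190 to 8629 in the restricted mice. Over whole libraries the ages overlap, but within classes every young mouse was shallower than every old ad libitum mouse in 8 of the 9 classes tested below, all but CA3, so in these depth and age cannot be told apart. The 4 libraries numbered 1, one in each group, held few oligodendrocyte-like nuclei, between 47 and 186 each. Young replicates 1 and 2 stand apart in what follows by a high share of subunit RNA in most classes. Levels here are shares of the UMIs of a sum, so a lower share need not mean less subunit RNA per nucleus. The number of mitochondria per cell was not measured. Nuclear RNA also says little of how much protein a cell holds.

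Across classes, subunit RNA made up a small part of the nuclear transcriptome, and vascular nuclei held the largest part. The 81 genes together took a median of 0.619% of UMIs in endothelial-like nuclei (0.391 to 0.832%, 8 mice with at least 20 nuclei) and 0.418% in mural-like nuclei (0.288 to 0.589%, 7 mice), the pericytes and smooth muscle of small vessels. Fibroblast-like nuclei followed at 0.279% (9 mice) and astrocyte-like nuclei at 0.266% (0.177 to 0.507%, 13 mice). Microglia-like nuclei lay at 0.227%, oligodendrocyte-like nuclei at 0.212% and inhibitory neuron-like nuclei at 0.204%. The principal neurons were low, with 0.182% in subicular or cortical excitatory, 0.164% in dentate granule, 0.162% in CA3 and 0.155% in CA1 pyramidal neuron-like nuclei. Oligodendrocyte precursor-like nuclei, at 0.156%, lay with the principal neurons and not with the mature oligodendrocyte-like nuclei. These levels are a description with no test.

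**Figure D1:**
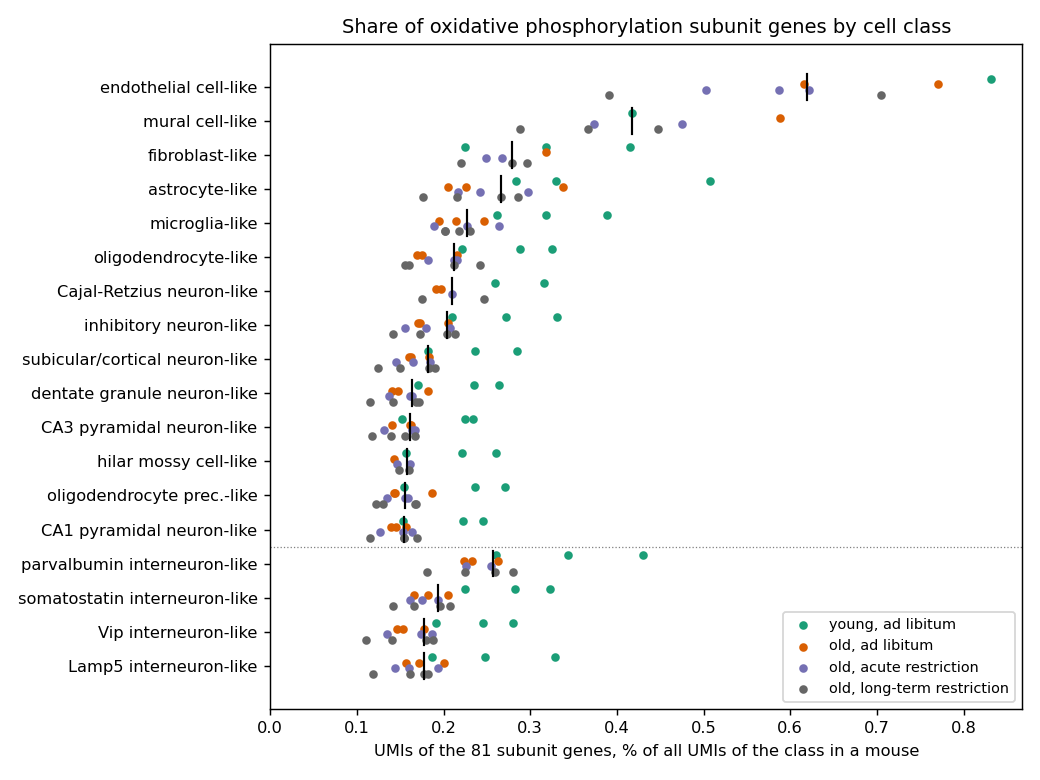
Share of all UMIs taken by the 81 subunit genes (x axis, %) in each cell class (y axis), 1 point per mouse coloured by group, with a black line at the median of the mice. Endothelial-like nuclei lie highest at a median of 0.619%, the principal neurons and the precursor-like nuclei lie lowest, and among the 4 interneuron classes under the dotted line the parvalbumin class lies highest at 0.257%.

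The places of the endothelial-like and mural-like classes held within mice. The endothelial-like share was above the mural-like share in 6 of 6 mice with both sums (median ratio 1.47), above the astrocyte-like share in 8 of 8 (ratio 2.37) and above the granule-like share in 8 of 8 (ratio 4.00). Astrocyte-like nuclei lay above granule-like nuclei in 13 of 13 mice (ratio 1.55) but above microglia-like nuclei in 11 of 13 (ratio 1.09). They lay above fibroblast-like nuclei in 5 of 9 mice (ratio 1.03), though the fibroblast-like median over its mice was higher. Whether these neighbours differ was not tested. The vascular sums are thin, with 303 endothelial-like and 265 mural-like nuclei in all. Other signs moved with them. Ribosomal protein genes took 1.16 to 2.17% of endothelial-like UMIs against 0.178 to 0.449% in oligodendrocyte-like nuclei. Mitochondrially encoded genes took a median of 0.112% in endothelial-like and 0.0398% in mural-like nuclei. Their median was 0.02% in fibroblast-like, 0.00927% in astrocyte-like, 0.00374% in oligodendrocyte-like and 0.00256% in granule-like nuclei. Median depth per nucleus was 1483.5 UMIs in endothelial-like, 1202 in mural-like, 1439 in microglia-like and 6716 in granule-like nuclei. Summed endothelial markers stood at 13857 CPM (UMIs scaled to the same total in every sum) in endothelial-like nuclei beside 2434 CPM of astrocyte markers and 2140 CPM of mural markers. In mural-like nuclei mural markers stood at 7955 CPM beside 3877 CPM of astrocyte and 299 CPM of endothelial markers, and in fibroblast-like nuclei fibroblast markers stood at 5768 CPM beside 4499 CPM of astrocyte markers. The part of these in the vascular and fibroblast-like levels was not tested.

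Member by member the vascular classes led as well. Of the 77 genes with at least 200 UMIs in all, 57 had their highest class median in endothelial-like and 13 in mural-like nuclei. Each gene was compared with itself across classes, as median CPM over mice, since counts were not scaled to gene length. The 7 that peaked elsewhere were Ndufs1, Ndufs5 and Cox7b2 in astrocyte-like, Cox7b and Cox6a2 in inhibitory neuron-like, Ndufa9 in microglia-like and Ndufb2 in Cajal-Retzius neuron-like nuclei. They are named because they are the exceptions, a choice made after their values were seen.

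In complex I, several subunits differed little between classes. Ndufs1, which carries iron-sulfur clusters of the NADH-oxidising arm, peaked in astrocyte-like nuclei at 99.2 CPM and was lowest in endothelial-like nuclei at 58.1 CPM, the reverse of most members. Ndufv1, which holds the NADH site, ranged from 35.9 CPM in mural-like to 14.1 CPM in oligodendrocyte precursor-like nuclei. The accessory subunit Ndufa10 had the smallest ratio of highest to median class among the 77 (1.28), from 60.4 CPM in mural-like to 29.5 CPM in precursor-like nuclei. Ndufab1, the mitochondrial acyl carrier protein, ranged from 38.7 CPM in endothelial-like to 12.7 CPM in granule-like nuclei. Ndufs6, an accessory subunit bound to zinc, was among the most uneven, at 50.4 CPM in endothelial-like nuclei against 5.55 CPM for the median class.

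Complex III joined even and uneven members. Uqcrc1, a large matrix subunit, ranged from 73.5 CPM in mural-like to 21.4 CPM in precursor-like nuclei. Among the small complex III subunits, Uqcr11 and Uqcrb each reached 98.4 CPM in endothelial-like nuclei, which is 9.68 and 8.45 times the median class. Uqcrh, the hinge protein at the cytochrome c contact, stood at 113 CPM there and 24.3 CPM in CA1-like nuclei, and the Rieske iron-sulfur protein Uqcrfs1 at 34.6 CPM. In complex IV, Cox4i1 and Cox8a each stood at 292 CPM in endothelial-like nuclei. Cox4i1 was lowest in CA1-like nuclei at 42.0 CPM and Cox8a in subicular or cortical nuclei at 38.2 CPM.

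Cox5a reached 136 CPM and Cox6c 137 CPM in endothelial-like nuclei, and Cox6c was lowest in hilar mossy cell-like nuclei at 19.2 CPM. In complex V, Atp5a1 and Atp5b code for the alternating subunits of the catalytic head. Atp5a1 ranged from 122 CPM in endothelial-like to 52.6 CPM in precursor-like nuclei, and Atp5b from 191 CPM to 33.8 CPM in mossy cell-like nuclei. Atp5e, the epsilon subunit of the central stalk, was the most uneven ATP synthase gene, at 71.8 CPM in endothelial-like nuclei against 5.80 CPM for the median class, a ratio of 12.4.

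The complex IV isoforms separated the classes most sharply. Cox4i2, the form of Cox4i1 best known from lung and oxygen-sensing cells, had a median of 77.5 CPM in mural-like nuclei (36.7 to 199 CPM, 34 UMIs in 7 mice) and 12.6 CPM in endothelial-like nuclei (0 to 34.6 CPM, 12 UMIs). In granule-like nuclei, by far the largest class, it stood at 0.194 CPM, a level that free RNA in droplets can give. Ndufa4l2, the hypoxia-inducible relative of Ndufa4, followed the same pattern, with 128.6 CPM in mural-like (89.8 to 282 CPM, 64 UMIs), 87.2 CPM in endothelial-like (0 to 121 CPM, 52 UMIs), 4.15 CPM in fibroblast-like and 0.141 CPM in granule-like nuclei. Every mural sum held both genes, and the endothelial sums included zeros for each. Ndufa4 itself was present in every class, from 173 CPM in endothelial-like to 17.5 CPM in CA1-like nuclei.

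Cox6a2, the heart and skeletal muscle form of Cox6a1, had its highest class median in inhibitory neuron-like nuclei, and among those in the parvalbumin class. Its median was 9.91 CPM in parvalbumin interneuron-like nuclei (2.08 to 24.9 CPM, 88 UMIs in 12 mice), 2.77 CPM in Lamp5 interneuron-like nuclei, 0 in somatostatin interneuron-like nuclei and 0.08 CPM in granule-like nuclei. In the parvalbumin class Cox6a2 stood at 24.8, 24.9 and 13.1 CPM in the young mice and at 8.88, 3.66 and 2.08 CPM in the old ad libitum mice. Acutely restricted mice 1 and 3 gave 6.72 and 18.7 CPM, and the long-term restricted mice gave 10.9, 18.6, 4.09 and 4.98 CPM. Every young mouse was above every old ad libitum mouse, while the restricted mice spread over both. How many other genes separate in this way was not counted for the parvalbumin class. In all inhibitory neuron-like nuclei 10.2% of genes tested did so, and the Cox6a2 groups overlapped there. The subunit share in parvalbumin interneuron-like nuclei was 0.261 to 0.430% in young and 0.224 to 0.262% in old ad libitum mice. Whether Cox6a2 differs from that shift was not tested. No fit was run for the parvalbumin class alone. In all inhibitory neuron-like nuclei the ageing estimate for Cox6a2 was −1.29 on the log2 scale with an adjusted p of 0.222 in edgeR.

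Other restricted forms had patterns of their own. Cox6b2, a testis form of Cox6b1, stood at 25.8 CPM in mural-like (9 UMIs), 25.7 CPM in fibroblast-like (47 UMIs), 14.2 CPM in astrocyte-like (2.76 to 22.4 CPM, 325 UMIs) and 7.25 CPM in oligodendrocyte-like nuclei (150 UMIs). It was at 0.092 CPM in granule-like nuclei, and its median class is near 0. Cox7b2, the testis form of Cox7b, was instead a gene of neurons and astrocytes: 11.3 CPM in Lamp5, 10.8 CPM in parvalbumin, 8.28 CPM in astrocyte-like and 5.60 CPM in granule-like nuclei (1571 UMIs), with a median of 0 in oligodendrocyte-like, microglia-like and mural-like nuclei. The common Cox7b was highest in interneurons, at 124 CPM in parvalbumin (95.4 to 233 CPM), 76.6 CPM in somatostatin and 28.4 CPM in precursor-like nuclei. Cox7a1, with 171 UMIs in all named classes, had its highest class median in astrocyte-like nuclei, at 0.807 CPM. Cox8b had 13 UMIs in all named classes and Cox8c 0, which allows up to 0.00573 CPM for counting error alone. These muscle and testis forms of Cox7a2 and Cox8a were thus low at this depth, and no background level was measured for them. Their common partners were well covered, with 96.9 CPM for Cox7a2 and 292 CPM for Cox8a in endothelial-like nuclei.

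The proton-carrying ring of the ATP synthase is built from a protein that Atp5g1, Atp5g2 and Atp5g3 all encode. Atp5g2 was highest in mural-like (144 CPM), endothelial-like (139 CPM) and oligodendrocyte-like nuclei (57.7 CPM). Atp5g1 reached 43.9 CPM in endothelial-like nuclei and, unlike the others, nearly as much in parvalbumin interneuron-like nuclei at 43.2 CPM. Atp5g3 stood at 54.2 CPM in endothelial-like and 39.8 CPM in mural-like nuclei.

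**Figure D2:**
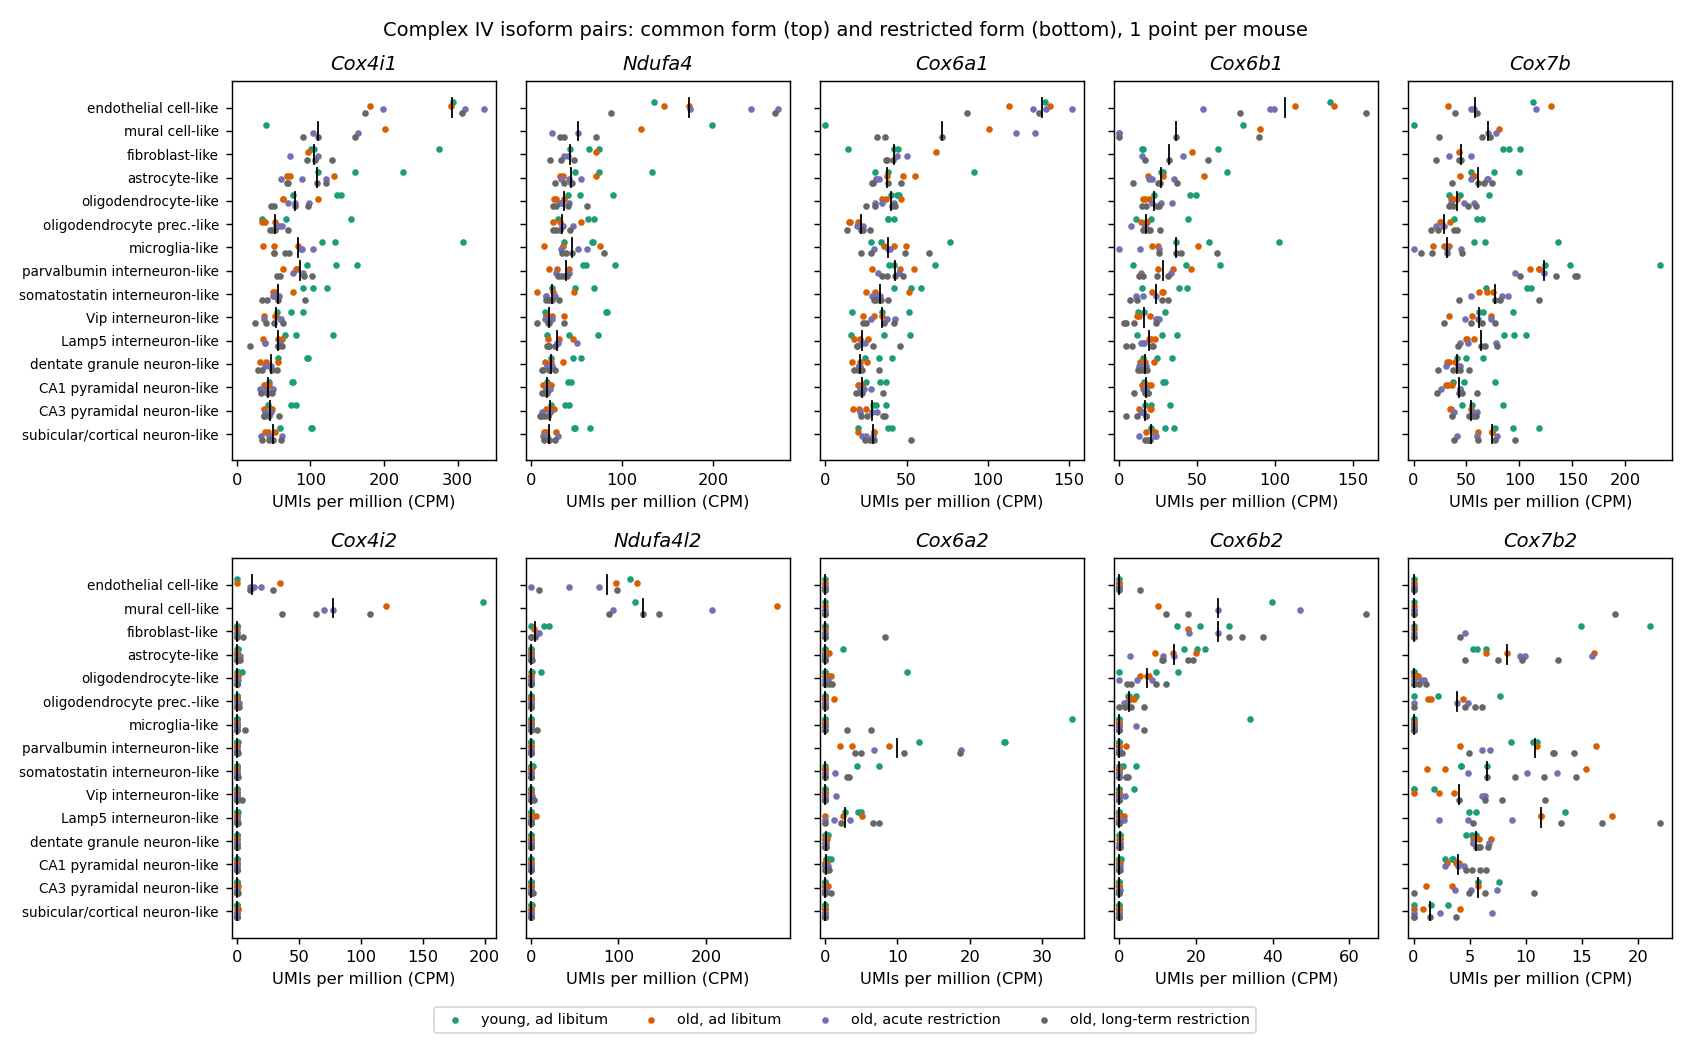
CPM (x axes, a scale of its own in each panel) of 5 common complex IV subunits in the upper panels and their restricted forms in the lower panels, by cell class (y axis), 1 point per mouse coloured by group, black lines at the medians. Cox4i2 and Ndufa4l2 are near 0 outside the vascular classes, Cox6a2 is highest in parvalbumin interneuron-like nuclei at a median of 9.91 CPM, and Cox6b2 runs from mural-like to oligodendrocyte-like nuclei.

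Among interneurons, the fast-spiking parvalbumin class is known for a high demand for ATP and many mitochondria. The subunit share in parvalbumin interneuron-like nuclei was 0.257% (0.181 to 0.430%, 770 nuclei), against 0.194% in somatostatin, 0.178% in Vip and 0.178% in Lamp5 interneuron-like nuclei. It was the highest of the 4 in 12 of 12 mice with the sums. The ratio to the somatostatin class was 1.30 (1.16 to 1.35), to the Lamp5 class 1.39 (1.31 to 1.54) and to the Vip class 1.49 (1.30 to 1.63). Of the 77 members counted, 67 had a higher median in the parvalbumin than in the somatostatin class, and 56 were highest there among the 4. Median depth was 9553 UMIs per nucleus in the parvalbumin, 9174.5 in the somatostatin and 5843 in the Vip class.

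With age, few subunit genes passed the test, and most estimates were negative. Old and young ad libitum mice were compared with edgeR's quasi-likelihood test on UMIs summed per mouse and class, in the 9 classes with enough nuclei, with Benjamini-Hochberg adjustment over all genes of a class. A gene is called at an adjusted p under 0.05. Of the 81 members 76 were tested in at least 1 class and 13 in all 9. Cox4i2, Cox7a1, Cox8b, Cox8c and Ndufa4l2 were too low to test. Of 590 gene and class pairs 7 were called, every one lower in the old mice (1.19%). Among all genes 0.684% of pairs were called lower and 1.44% were called in either direction. Estimates were negative in 535 of the 590 pairs, and 51 of the 76 members had a negative estimate in every class in which they were tested. An unadjusted p under 0.05 was reached by 149 pairs (25.3%), against a background of 18.5% of all pairs.

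The member medians were negative in all 9 classes. The median log2 fold change of the members, old minus young, was −0.59 in oligodendrocyte-like, −0.51 in inhibitory, −0.51 in precursor-like, −0.46 in CA1, −0.43 in CA3, −0.42 in granule and −0.40 in subicular or cortical nuclei. It was −0.33 in astrocyte-like and −0.22 in microglia-like nuclei, where only 13 members could be tested. The median over all genes lay between −0.04 and 0.00 in these classes. Every old mouse was below every young mouse in 101 of the 590 pairs (17.1%), against 9.18% of all pairs, and every old mouse was above every young mouse in 3 pairs (0.508%, against 11.8% of all pairs). Oligodendrocyte-like nuclei had the most pairs with all old mice below, 26 of 74 members (35.1%, against 9.37% of all genes tested there). Inhibitory neuron-like nuclei had 19 of 75 (25.3%, against 10.2%), and granule-like nuclei 3 of 74 (4.05%, against 10.5%).

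**Figure D3:**
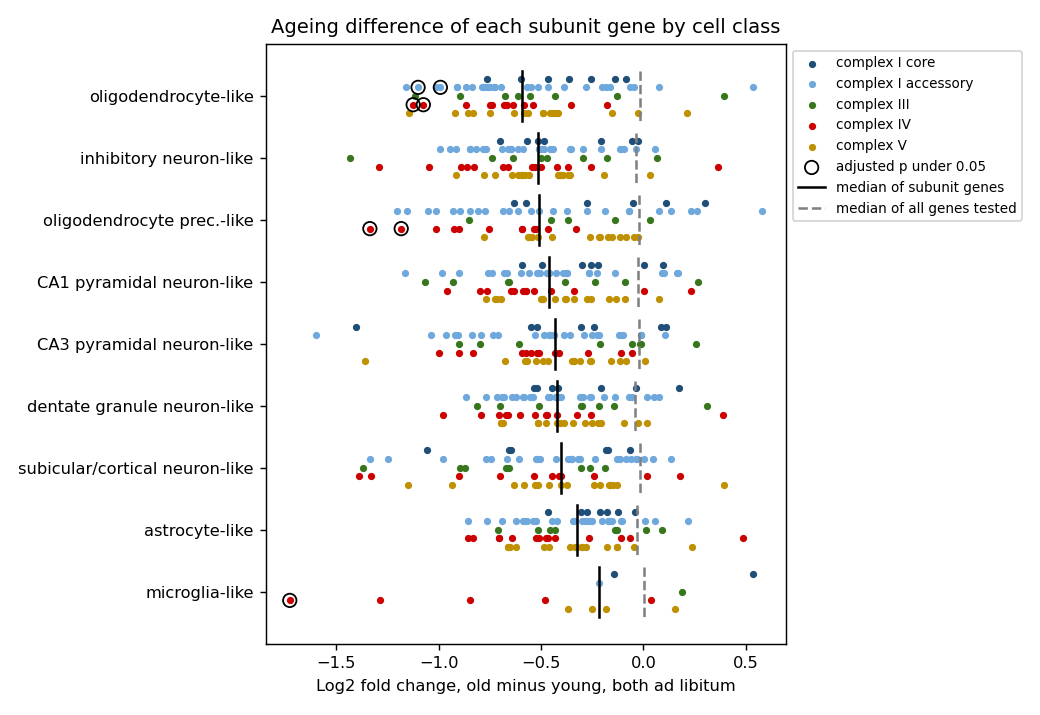
Log2 fold change of each subunit gene, old minus young, both fed ad libitum (x axis), in the 9 classes tested (y axis), 1 point per gene coloured by complex. Black lines are the medians of the subunit genes, from −0.59 to −0.22, grey dashed lines the medians of all genes tested, and circles mark the 7 called pairs, which lie in oligodendrocyte-like, precursor-like and microglia-like nuclei.

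Complex IV held 5 of the 7 calls and the lowest median, −0.57 over 109 pairs, with 48 pairs at an unadjusted p under 0.05. Accessory subunits of complex I had 2 calls and a median of −0.46 over 226 pairs. Complex III (−0.43, 62 pairs), complex V (−0.40, 137 pairs) and the core of complex I (−0.27, 56 pairs) had 0 calls in edgeR, with 14, 35 and 8 pairs at an unadjusted p under 0.05. DESeq2 called Atp5a1 of complex V in inhibitory neuron-like nuclei, Cox4i1 and Cox6c of complex IV in granule-like nuclei, and Cox7c. These were 10 pairs in all (1.69%), each lower in the old mice, against 1.28% of all pairs called lower by DESeq2. The difference between complexes was not tested.

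Cox7c, a small membrane subunit of complex IV, fell in 3 classes. In oligodendrocyte precursor-like nuclei its level was 6.29, 6.90 and 5.95 log2 CPM in young mice 1, 2 and 3 and 5.60, 4.88 and 4.99 in old ad libitum mice 1, 2 and 4. The groups did not overlap, and Cox7c fell by 1.34 on the log2 scale (SE 0.26, adjusted p 0.00414 in edgeR). Of all genes tested in this class 0.939% were called lower. In oligodendrocyte-like nuclei, where 4.01% of genes were called lower, the young mice gave 6.19, 6.59 and 6.11 and the old mice 6.05, 5.32 and 4.78 log2 CPM.

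The lowest young and the highest old oligodendrocyte-like value lie close together, and Cox7c fell by 1.12 there (SE 0.25, adjusted p 0.0068). In microglia-like nuclei, where 0.749% of genes were called lower, the young mice gave 8.14, 7.91 and 7.14 log2 CPM and the old mice 6.37, 5.77 and 6.12. Here Cox7c fell by 1.73 (SE 0.43, adjusted p 0.0337) with no overlap, on 7 to 27 UMIs per mouse. Over all 9 classes the Cox7c estimates ran from −1.73 to −0.83 with a median of −1.05. In 8 of the 9 every old mouse was below every young mouse, which held for 9.18% of all gene and class pairs. The 9 classes come from the same mice and are not separate observations. In precursor-like nuclei Cox7c stood at 5.31, 5.40 and 5.79 log2 CPM after acute and 5.70, 5.29, 5.00 and 5.39 after long-term restriction, below every young mouse. In microglia-like nuclei it stood at 6.89, 6.63 and 6.31 after acute and 6.64, 6.83, 5.28 and 6.88 after long-term restriction. There each restricted group overlapped the old ad libitum mice and lay below every young mouse, and no member was called for restriction. This pair was named because its old group is low and its young group high, which bears on where other mice fall. On the map Cox7c is overlapped on the same strand by the small gene Gm22574.

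Cox6a1, a subunit at the contact between complex IV monomers, fell in oligodendrocyte precursor-like nuclei. The young mice gave 5.49, 5.35 and 5.35 log2 CPM (15 to 19 UMIs) and the old mice 4.24, 4.54 and 4.14 (12 to 26 UMIs). The young values lie close together and well above all old ones, a fall by 1.18 (SE 0.30, adjusted p 0.0352 in edgeR; 0.0608 with the replicate block). The restricted mice lay between 4.07 and 4.91, below every young mouse. DESeq2 gave no adjusted p for Cox6a1.

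Cox6b1, which faces the intermembrane space, fell in oligodendrocyte-like nuclei. Values were 5.40, 5.69 and 4.58 log2 CPM in the young and 4.25, 4.06 and 4.36 in the old mice, so young mouse 3 was close to the old group. Cox6b1 fell by 1.07 (SE 0.32, adjusted p 0.0406 in edgeR; 0.141 in DESeq2; 0.0578 in edgeR with at least 50 nuclei per sum). Its estimate was −0.50 without young replicate 2 (adjusted p 0.689) and −1.48 without young replicate 3. The remaining 2 calls had groups that overlapped, and they are named only because the count is small, a choice made after their values were seen. Ndufa6, a matrix-arm accessory subunit of complex I, gave 5.00, 5.63 and 5.24 log2 CPM in the young and 5.41, 4.34 and 3.94 in the old mice in oligodendrocyte-like nuclei. The group means were 5.29 in the young and 4.56 in the old mice. In the fit Ndufa6 fell by 1.10 (SE 0.33, adjusted p 0.0448 in edgeR, 0.289 in DESeq2, 0.0565 in edgeR with at least 50 nuclei per sum).

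Ndufb5, a membrane-arm accessory subunit, gave 3.53, 4.76 and 5.35 in the young and 4.00, 4.25 and 3.87 in the old mice, with 1 UMI in young mouse 1. The young mice span the whole old range, with group means of 4.54 in the young and 4.04 in the old mice. Ndufb5 fell by 0.99 in the fit (SE 0.30, adjusted p 0.0463 in edgeR, 0.274 in DESeq2, 0.152 in edgeR with the replicate block). Without young replicate 3 the estimate was −0.57 (adjusted p 0.427), and without old ad libitum replicate 2 −1.16. Ndufb5 is overlapped on the opposite strand by Mrpl47.

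**Figure D4:**
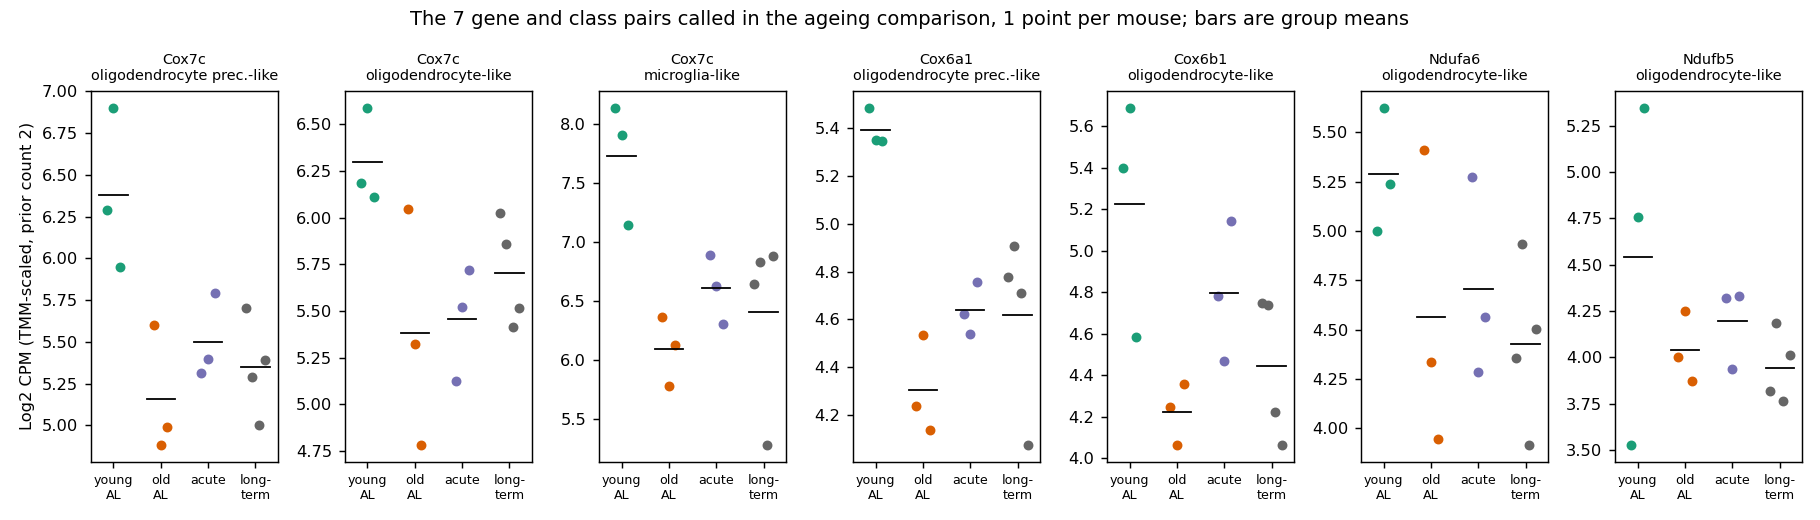
Log2 CPM (y axes, which differ between panels and do not start at 0) of the 7 gene and class pairs called lower with age, 1 point per mouse in the 4 groups (x axis), bars at the group means. The old ad libitum and both restricted groups lie below most young mice, and the groups of Ndufa6 and Ndufb5 overlap.

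These calls rested on few mice. Leaving out old ad libitum replicate 2, old ad libitum replicate 4 or young replicate 2 left 0 of the 7 calls. Leaving out any other library gave 5 to 10 calls, always with Cox7c but not always with the other genes. Without young replicate 1 there were 5 lower and 1 higher, in Cox7c, Ndufb5 and Uqcrc2. Without old ad libitum replicate 1 (10 calls, 1.65%, against 552 of all 106917 pairs called lower) Atp5a1, Cox5a, Cox8a and Ndufc2 were new. Without young replicate 3 Atp5g1, Atp5g3, Cox4i1, Cox6c, Cox8a and Ndufb9 were new. In the 3 fits that left 0 calls, 127, 238 and 47 of all pairs were called lower, in the order given, against 704 with every library. Adding median depth per nucleus as a covariate left 0 members called, and 0.0% of all pairs were then called lower. The estimates with that covariate were −1.11 for Cox7c in precursor-like, −0.87 in oligodendrocyte-like and −1.48 in microglia-like nuclei, −0.81 for Ndufa6, −0.79 for Ndufb5 and −0.16 for Cox6b1, and that of Cox6a1 lay between those of Cox7c in the first 2 classes. Removing the trend of expression on gene length also left 0 members called, against 0.437% of all pairs called lower, and the Cox7c estimates were −0.77 in precursor-like (adjusted p 0.159), −0.56 in oligodendrocyte-like and −1.37 in microglia-like nuclei (adjusted p 0.0689). Those of Ndufb5, Cox6b1, Cox6a1 and Ndufa6 were −0.83, −0.80, −0.69 and −0.68. With the replicate number as a block 39 pairs of members were called lower (6.61%), against 2.93% of all pairs, and with no filter on low counts 14 (1.97%), against 0.599%. Subunit genes are short, with a median span of 7.184 kb against 12.268 kb for all genes.

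The stretches upstream of the called genes are shown because these members were called lower with age. Known control elements of this gene family were searched on both strands: NRF1 (GCGCA, any base, GCGC), YY1 (AANATGGCG), the ETS motif bound by GABPA (CCGGAAG) and ESRRA (CAAGGTCA). In RefSeq's table for GRCm38.p6, 65 members had 70 promoters. In the 250 bases before the start, NRF1 letters were present in 12 of them (17.1%, against 3.74% of all promoters), ETS letters in 11 (15.7% against 6.91%), YY1 in 3 (4.29% against 1.12%) and ESRRA in 3 (4.29% against 1.33%). Any of the 4 was present in 24 (34.3% against 12.1%). The windows below, all from the minus strand and written 5′ to 3′, are the parts of those 250 bases that carry no annotated exon, and capitals mark NRF1 letters. They lie at chr5:115348982-115349129 for Cox6a1, chr7:30626152-30626364 for Cox6b1, chr13:86046905-86047045 for Cox7c and chr15:82354323-82354541 for Ndufa6.
Cox6a1: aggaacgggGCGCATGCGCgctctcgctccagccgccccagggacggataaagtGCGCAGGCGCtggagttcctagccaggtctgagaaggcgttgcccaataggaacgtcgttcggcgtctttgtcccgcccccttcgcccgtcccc
Cox6b1: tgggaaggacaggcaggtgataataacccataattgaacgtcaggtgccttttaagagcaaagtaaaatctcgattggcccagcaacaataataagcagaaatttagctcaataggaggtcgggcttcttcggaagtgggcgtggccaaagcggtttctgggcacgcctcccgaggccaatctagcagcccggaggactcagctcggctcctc
Cox7c: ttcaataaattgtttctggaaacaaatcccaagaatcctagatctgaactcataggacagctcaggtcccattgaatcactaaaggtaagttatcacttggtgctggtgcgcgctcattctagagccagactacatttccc
Ndufa6: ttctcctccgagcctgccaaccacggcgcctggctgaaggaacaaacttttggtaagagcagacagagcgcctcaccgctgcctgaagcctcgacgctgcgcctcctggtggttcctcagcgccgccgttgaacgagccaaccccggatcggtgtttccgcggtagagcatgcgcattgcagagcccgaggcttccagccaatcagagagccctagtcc
Cox6a1 holds 2 NRF1 matches, and the other 3 windows hold no exact match to the letters of the 4 motifs. Stretches that differ from these letters by a base were not searched. The window of Ndufb5 lies wholly on exons of Mrpl47 and is not shown. A match is a description of the letters and was not tested as a site.

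Members that were not called in the edgeR fit with the filter on low counts, every library and no added term are described in granule-like nuclei. This is the class with the most nuclei (40058). Cox4i1 stood at 6.52, 6.36 and 5.70 log2 CPM in the young and at 5.87, 5.35 and 5.01 in the old ad libitum mice, an estimate of −0.79 (adjusted p 0.0982 in edgeR). Atp5a1 gave 6.32, 6.23 and 5.92 against 5.74, 5.77 and 5.57, an estimate of −0.47 (adjusted p 0.106) with no overlap. Every old mouse was below every young mouse for 10.5% of all genes tested in granule-like nuclei. For Atp5a1 this held in 7 of the 9 classes, which come from the same mice, against 9.18% of all pairs. Cox8a gave 6.37, 5.93 and 5.38 against 5.79, 4.97 and 4.97, with young mouse 3 inside the old range. In all 3 genes young mice 1 and 2 were the highest of the 6 mice, and young mouse 3 was the lowest of the young. When 1 library was left out the estimates ran from −1.04 to −0.61 for Cox4i1, from −0.58 to −0.39 for Atp5a1 and from −0.98 to −0.39 for Cox8a, and the smallest adjusted p was 0.0587. With the replicate block edgeR gave adjusted p of 0.0171 for Cox4i1, 0.0407 for Atp5a1 and 0.0644 for Cox8a. With a term for libraries numbered 1 these were 0.0179, 0.0502 and 0.0432. With the depth covariate or the length trend removed, the adjusted p in edgeR was 0.33 or more for all 3.

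Further representative subunits had estimates in granule-like nuclei of −0.71 for Cox6c, −0.67 for Cox5a, −0.60 for Ndufa4, −0.52 for Ndufv1, −0.40 for Ndufab1, −0.81 for Uqcrfs1, −0.69 for Atp5g3, −0.22 for Uqcrh, −0.22 for Atp5e, −0.21 for Atp5b and −0.14 for Uqcrc1, with adjusted p between 0.0844 and 0.711 in the same edgeR fit. DESeq2 called Cox6c (adjusted p 0.0275). EdgeR with the replicate block called Cox6c, Cox5a and Uqcrfs1 (0.0179, 0.0271 and 0.0455), where 2.93% of all pairs were called lower. With a term for libraries numbered 1 edgeR called these 3, Ndufv1 and Ndufab1, where 4.11% of all pairs were called lower. Without 1 library, Cox6c reached an adjusted p of 0.0448 in 1 edgeR fit. Ndufs1 was the most even of the representative subunits in granule-like nuclei, with an estimate of −0.04. It stood at 6.16, 5.96 and 6.19 log2 CPM in the young and 6.02, 6.01 and 6.17 in the old ad libitum mice. Its gene spans 33.2 kb, against a median of 7.184 kb for the members.

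Cox6a2 was tested in 1 class only (−1.29). Among the other members the lowest medians across classes after Cox7c were those of Uqcrfs1 (−0.90), Uqcrb and Ndufc2 (each −0.83), Ndufb9 (−0.80) and Cox4i1 (−0.79). None of these was called in edgeR with the filter on low counts, every library and no added term. DESeq2 called Cox4i1 in granule-like nuclei, and edgeR with no filter called Cox4i1 and Ndufb9. EdgeR with a term for libraries numbered 1 called Cox4i1, Ndufc2, Ndufb9 and Uqcrfs1, and so did edgeR with the replicate block. Ndufc2 was also called without old ad libitum replicate 1 or long-term replicate 3, and Cox4i1 and Ndufb9 without young replicate 3. At the other end the median was −0.12 for Uqcrc1, −0.11 for Ndufa9 and −0.10 for Ndufs4, which has the most UMIs of all members. It was −0.09 for Ndufa10, −0.01 for Atp5l, 0.03 for Ndufv2 and 0.06 for Ndufv3. Uqcrc2, a large matrix subunit of complex III, was negative in 2 of 9 classes with a median of 0.19, and Cox7b2 in 1 of 5 with a median of 0.36. The members named with the lowest medians, Cox6a2 apart, span from 2.09 kb (Cox7c) to 7.8 kb (Ndufc2). Those named at the other end span from 8.19 kb (Atp5l) to 105 kb (Cox7b2). These differences between members, and the part of gene length in them, were not tested.

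The ageing shift moved together with other properties of the libraries. In granule-like nuclei the subunit share was 0.264, 0.235 and 0.171% in the young and 0.182, 0.141 and 0.148% in the old ad libitum mice. Ribosomal protein genes, another set of short and abundant transcripts, took 0.318, 0.290 and 0.202% in the young and 0.198, 0.172 and 0.153% in the old mice. Median depth per nucleus ran the other way, at 6580, 3875 and 5598 UMIs in the young and 12780.5, 7064.5 and 8174 in the old mice.

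The share of young mouse 3 lies inside the old ad libitum range in granule-like nuclei and in 6 of the 9 classes in all (CA1, CA3, granule, subicular or cortical, astrocyte-like and precursor-like). Young mice 1 and 2 lie above all other libraries in granule-like nuclei. Over whole libraries, mitochondrially encoded genes took 0.00748, 0.00323 and 0.00271% of UMIs in the young and 0.00963, 0.00172 and 0.00217% in the old ad libitum mice. The nuclear RNA Malat1 took 7.03, 10.2 and 6.17% of granule-like UMIs in the young and 6.29, 4.22 and 3.30% in the old mice. In oligodendrocyte-like nuclei the subunit share was 0.325, 0.288 and 0.221% in the young and 0.215, 0.169 and 0.175% in the old mice, with no overlap.

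Over the 9 classes the median ageing change of ribosomal protein genes ran from −0.67 to −0.33, and 11 of their 643 pairs were called lower (1.71%). The subunit medians of −0.59 to −0.22 are of the same size. Removing the gene length trend took the subunit medians to between −0.29 and −0.01, with 411 of 590 estimates negative. In that edgeR fit 42 pairs of members had an unadjusted p under 0.05 (7.12%), against 12573 of all 102891 pairs. With depth per nucleus as a covariate the subunit medians ran from −0.75 to −0.23, with 528 of 590 estimates negative. There 92 pairs of members (15.6%) and 8684 of all 102891 pairs had an unadjusted p under 0.05. Without young replicate 1 the subunit medians ran from −0.58 to −0.07, without young replicate 2 from −0.55 to −0.33 and without young replicate 3 from −0.78 to −0.54. The subunit medians stayed negative in all 9 classes in each of these. The part of depth, gene length and the 2 young libraries in the shift was not tested beyond these values.

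**Figure D5:**
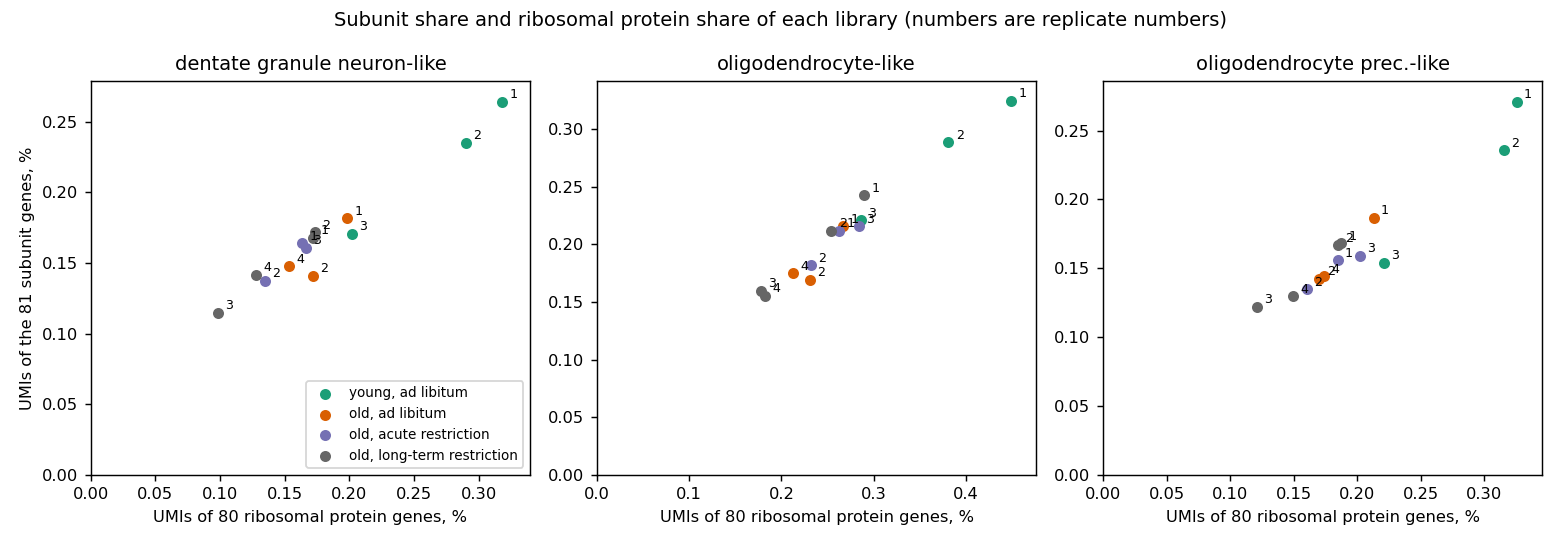
Subunit share (y axis, % of UMIs) against the share of 80 ribosomal protein genes (x axis, % of UMIs) in granule-like, oligodendrocyte-like and precursor-like nuclei, 1 point per library coloured by group and marked with its replicate number. Young replicates 1 and 2 lie at the upper right of each panel, while in precursor-like nuclei young replicate 3 has the ribosomal protein share next below them (0.221%) and a subunit share of 0.154%, below that of old ad libitum replicate 1 (0.187%).

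With a term for the 4 libraries numbered 1, more members passed. In that edgeR fit 60 pairs were called lower and 1 higher, in 31 members, while 4.11% of all pairs were called lower. Cox7c was called in 6 classes, Cox4i1 and Cox8a in 5 each, Cox5a and Ndufc2 in 4 each and Atp5o, Ndufa4 and Ndufb9 in 3 each. Cox4i1 estimates ran from −1.29 to −0.80 in its 5 classes. The single gene called higher was Uqcrc2 in granule-like nuclei, at 0.33. Of 643 ribosomal protein pairs 85 were called lower in the same fit (13.2%).

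Whether the age effect differed between classes was tested directly, as the difference of granule-like and another class within each mouse (limma). No member was called for the difference from oligodendrocyte-like (73 members, 2 at an unadjusted p under 0.05), astrocyte-like (74 members, 6) or CA1-like nuclei (74 members, 0). Of all genes 0.018%, 0.036% and 0.0% were called in these fits. The calls of Cox7c, Cox6b1, Ndufa6 and Ndufb5 in oligodendrocyte-like nuclei therefore are not shown to be particular to that class.

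Dietary restriction, whether begun at 5 or at 20 months, gave no call among the subunit genes. The long-term and the acute comparison share the same 3 old ad libitum mice. After long-term restriction 0 of 590 pairs were called in edgeR, with 11 at an unadjusted p under 0.05 (1.86%), and DESeq2 also called 0. Of all pairs 0.0311% were called and 4.7% had an unadjusted p under 0.05. The member medians lay between −0.27 in astrocyte-like and 0.01 in microglia-like nuclei, and 368 of the 590 estimates were negative. Without old ad libitum replicate 1 all 9 medians were positive, from 0.01 in CA3 to 0.26 in astrocyte-like nuclei, and 241 of 605 estimates were negative. Without old ad libitum replicate 2 all 9 were negative, from −0.51 to −0.03, with 427 of 604 estimates negative, and without long-term replicate 3 only 3 of 9 were negative. In old ad libitum replicate 1 the astrocyte-like subunit share, 0.338%, was the highest of the old ad libitum mice. That library also had the highest mitochondrial UMI share of the 13, 0.00963%, and the fewest nuclei, 3417. The part of these in the medians was not tested.

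After acute restriction 0 pairs were called in edgeR and in DESeq2, with 7 at an unadjusted p under 0.05 (1.19%), against 0.208% of all pairs called and 4.95% at an unadjusted p under 0.05. Member medians lay between −0.22 in astrocyte-like and 0.13 in oligodendrocyte-like nuclei, and without old ad libitum replicate 1 all 9 were positive, from 0.00 in microglia-like to 0.32 in astrocyte-like nuclei, with 192 of 605 estimates negative. All 9 were negative without acute replicate 3, from −0.17 to −0.01, and 1 of 9 without acute replicate 2, while without old ad libitum replicate 2 the lowest was −0.44, with 394 of 604 estimates negative. Between the restrictions, which share no mice, 0 pairs were called in either tool and 8 had an unadjusted p under 0.05 (1.36%), against 0.0117% of all pairs called and 2.85% at an unadjusted p under 0.05. Medians for long-term minus acute lay between −0.11 and −0.01. They ran from −0.08 to 0.12 without acute replicate 1 and from −0.06 to 0.10 without long-term replicate 3, with 3 of 9 negative in each, and from −0.28 to −0.04 without acute replicate 2. By complex, the long-term medians ran from −0.14 for complex V to 0.01 for complex IV and the acute medians from −0.06 to 0.02 for the same complexes.

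The pairs of smallest p in these comparisons are given as values only, since none passed. For long-term restriction, Cox7b2 in CA1-like nuclei stood at 2.83, 2.37, 2.40 and 2.60 log2 CPM in the restricted and 2.22, 1.71 and 2.02 in the old ad libitum mice, an estimate of 0.64 (adjusted p 0.978 in edgeR). All 4 restricted mice were above the 3 controls, which held for 2.70% of members and 3.88% of all genes in this class. The next were Atp5g1 in precursor-like (−0.78), Atp5h in subicular or cortical (−0.74), Cox6a1 in CA3-like (0.50) and Ndufs8 in astrocyte-like nuclei (−1.01), with adjusted p of 0.782 or more.

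For acute restriction, Ndufb9 in subicular or cortical nuclei stood at 5.10, 4.85 and 4.93 log2 CPM in the restricted and 4.43, 4.17 and 3.42 in the control mice, an estimate of 0.98 (unadjusted p 0.00845, adjusted p 1 in edgeR). The groups did not overlap, and the young mice lay at 5.54, 5.21 and 4.65. Every restricted mouse was above every control for 4.35% of members and 4.56% of all genes in this class. Ndufv3 had estimates of −0.52 in CA1-like and −0.72 in oligodendrocyte-like nuclei, and Cox6c and Ndufab1 of 0.54 and 0.59 in oligodendrocyte-like nuclei, with adjusted p of 0.281 or more. Between the restrictions, Cox6c in oligodendrocyte-like nuclei stood at 5.19, 4.84, 4.63 and 4.95 after long-term and 5.13, 5.52 and 5.44 after acute restriction, an estimate of −0.62 (adjusted p 0.505) with overlapping groups. Ndufb2 in precursor-like (0.75), Ndufs8 in astrocyte-like (−1.10), Atp5j in oligodendrocyte-like (−0.67) and Cox7b2 in CA1-like nuclei (0.59) followed.

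Genes around the complexes were read in the same fits. The nuclear subunits of complex II, which feeds electrons from succinate, had 0 calls with age in 33 pairs in edgeR (15 negative, 3 at an unadjusted p under 0.05), and the mitochondrially encoded subunits 0 in 36 pairs (31 negative, 0 at an unadjusted p under 0.05). Cytochrome c (Cycs) had 0 in 7 pairs (7 negative, 3 at an unadjusted p under 0.05), and the transcriptional regulators of mitochondrial genes 0 in 59 (18 negative, 12 at an unadjusted p under 0.05). Of all pairs 18.5% had an unadjusted p under 0.05 in these edgeR fits. Assembly factors had 3 calls lower in 290 pairs (195 negative), where 0.684% of all pairs were called lower. Timmdc1, which builds the membrane arm of complex I, stood at 5.37, 5.41 and 5.51 log2 CPM in the young and 4.80, 4.69 and 4.65 in the old ad libitum mice in granule-like nuclei and fell by 0.72 (SE 0.12, adjusted p 0.0184 in edgeR). The groups do not overlap, and the adjusted p was 0.0485 after removal of the length trend. With depth per nucleus as a covariate the estimate was −0.69 (adjusted p 0.442), and Timmdc1 was called in 10 of 13 fits that left out 1 library, with adjusted p up to 0.115. In oligodendrocyte-like nuclei Timmdc1 fell by 0.98 (adjusted p 0.0105 in edgeR; 0.0656 in DESeq2; 0.789 with the depth covariate). Ndufaf7, a methyltransferase that modifies a complex I core subunit, fell by 0.77 there in the fit (adjusted p 0.0388 in edgeR, 0.206 in DESeq2). In edgeR the adjusted p was 0.164 with the length trend removed and 0.969 with the depth covariate. The mean of Ndufaf7 was 5.65 log2 CPM in the young mice (SD 1.05) and 5.35 in the old ad libitum mice (SD 0.15). The old and young mice overlapped for both genes in oligodendrocyte-like nuclei.

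Of the pyruvate and citric acid cycle genes 1 of 142 pairs was called lower with age, where 0.684% of all pairs were called lower. It was Mdh2 in oligodendrocyte precursor-like nuclei, and its values are not given here. Under acute restriction that list held 1 call: Pdk4, the kinase that switches off pyruvate dehydrogenase when fat is burned, stood at 5.84, 5.05 and 5.84 log2 CPM in acutely restricted and 3.71, 3.05 and 3.25 in control oligodendrocyte-like nuclei. It rose by 2.51 (SE 0.30, adjusted p 8.72e-06 in edgeR), and long-term restricted mice, at 4.11, 4.34, 3.53 and 4.26, were lower than acutely restricted ones by 1.52 (adjusted p 0.0043 in edgeR; 0.0659 in DESeq2; 0.218 with depth per nucleus as a covariate). The acute call was kept in both of these, with adjusted p of 1.79e-06 and 0.0101. No other gene of these lists was called in a restriction comparison. Of all pairs 0.208% were called under acute restriction and 0.0117% between the restrictions.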

How the data were processed

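The deposited files hold, per the file headers, whole-number UMI counts of 32285 genes in each nucleus barcode of the 13 libraries. They were made with Cell Ranger 4.0.0 on build mm10, per the submitters' processing notes, and whether reads in introns were counted is not given in the sources used here. Barcodes with under 500 genes or over 5% mitochondrial UMIs were left out, and the 105427 others were scored for doublets against simulated ones and clustered (scanpy 1.11.5, Leiden resolution 1, 2000 variable genes, 30 components) without the subunit and mitochondrially encoded genes. The 7386 called doublets were clustered too and then left out of all sums. A cluster was named when at least 3 markers of a class were raised, and 21 clusters with 15559 nuclei stayed unnamed, 1 of them (71 barcodes) by a rule on cerebellar genes added after the clusters were seen. Of 104066 distinct barcode sequences 1351 occurred in more than 1 library. Libraries hold 38546292 to 80538090 UMIs, and low sums limit precision as the UMI numbers in the text show.

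Counts were summed per mouse and class where at least 20 nuclei were present. They were fitted with edgeR 4.0.16 (TMM scaling, filterByExpr, robust quasi-likelihood fit over all 4 groups, no block) in R 4.3.3, separately in 9 classes, and adjusted over all genes of the class. Log2 CPM used a prior count of 2. Class differences of the age effect used limma 3.58.1. DESeq2 1.42.0, its size factors in edgeR, no filter, the replicate number as a block, a term for libraries numbered 1, depth and gene length corrections, doublets kept, 50 nuclei per sum and leaving out each library were the alternatives. The edgeR fit was also run on simulated granule-like counts, and the outcome is not given here. An exact permutation test of 3 against 3 mice cannot go below p = 0.1.

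The members and lists were chosen with earlier results of these data known. The ribosomal protein list was chosen after seeing the data. Named are called pairs whose groups do not overlap (or the 5 of smallest p where fewer were called), fixed representative subunits, isoform pairs, the 5 members with the most uneven class levels, and up to 3 called genes of the neighbouring lists per comparison, whether or not their groups overlap. Promoter sequences came from RefSeq and gene spans from GENCODE vM21.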

Additional observations from a re-analysis of the deposited data

Results flagged for a closer look

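In the long-term restricted group, the only group of 4, the 43 sets of values given for named genes and class shares were checked for a mouse far from the other 3, and chance marks about 1 in 20. Replicate 3 was far from the others in 2 of them. Its Cox7c level in microglia-like nuclei was 5.28 log2 CPM on 4 UMIs, against 6.64 to 6.88 in the other 3 mice. Its Ndufv3 level in oligodendrocyte-like nuclei was 4.1 log2 CPM, above the 3.82 to 3.84 of the other 3.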

How the results depend on the processing

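The count of pairs called with age, 7, was 14 with no filter on low counts, 39 with the replicate block and 61 (60 lower, 1 higher) with the term for libraries numbered 1. It was 0 with depth per nucleus as a covariate or the gene length trend removed. Of all pairs 0.684% were called lower in the first fit, and 0.599, 2.93, 4.11, 0.0 and 0.437% in the others, in the order given. Calls numbered 0 to 10 when 1 library was left out, not always of the same genes, with 1 higher without young replicate 1. The labels do not say that replicate numbers pair mice: across genes, the deviations of young and old ad libitum mice from their group means correlated by 0.13 to 0.41 in the 9 classes for number 1 but by −0.17 to 0.10 for number 2, so the block was not taken as a pairing. For long-term restriction all 3 shared numbers were over 0.1 in oligodendrocyte-like (0.18, 0.12 and 0.14) and inhibitory neuron-like nuclei (0.41, 0.13 and 0.28), and not in the other 7 classes. With the block the long-term class medians ran from −0.07 to 0.06 in place of −0.27 to 0.01, and 0 pairs were called. The middle class median with age, −0.43, was −0.13 with the length trend removed. DESeq2 (10 calls), its size factors in edgeR (6), doublets kept (7) and 50 nuclei per sum (5) stayed within 1.5 times, though not always with the same genes: DESeq2 called Atp5a1, Cox4i1, Cox6c and Cox7c only. Under the replicate block Cox6a1 (adjusted p 0.0608) and Ndufb5 (0.152) were not called. Leaving out a library leaves fewer samples; otherwise the cause was not tested. The 0 calls for restriction and for class differences held in all alternatives run. Of the single class medians 32 of 36 moved by less than the spread between mice under the length correction, 34 of 36 under the depth covariate and 454 of 468 when leaving out 1 library. Endothelial-like, mural-like and fibroblast-like nuclei were not fitted because in each at least 1 group had a single mouse with 20 nuclei, and 13 members passed the filter on low counts in microglia-like nuclei.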
